A study of Mus musculus with 3 samples.

Results

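The set described here is the NBS1 peaks of the AH2 cell line that lay away from the antigen receptor loci and appeared, with the same chromosome, start and end, both in the full AH2 NBS1 peak list and in the AH2 list left after subtraction. There were 802 such peaks, called kept off-locus peaks below. They made up 53.9% of the 1489 intervals of the subtracted list (95% Wilson interval 51.3 to 56.4%), 15.4% of the 5201 AH2 NBS1 peaks (14.5 to 16.4%), and 802 of the 21785 intervals in the 4 lists of the series. The 2 AH2 lists shared 922 identical intervals, and the selection left out 120 of them. Of these, 20 were on unplaced sequence, 32 on chromosome X, Y or M, 23 started below 5 Mb, and 24, 15, 2 and 4 lay in the windows of the immunoglobulin heavy chain (Igh), kappa (Igk), lambda (Igl) and T cell receptor alpha/delta (Tcra/Tcrd) loci. The Tcrb and Tcrg windows held 0.

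Chromatin immunoprecipitation followed by sequencing (ChIP-seq) was done in AH2 and in R2K.Artm, both mouse pre-B cells transformed by v-Abl, with a rabbit monoclonal antibody to NBS1, and DNA of AH2 that had not been precipitated was sequenced as input. There were 3 libraries, 1 per group. The labels give the genotype of both lines as N/A and name no treatment. Peak lists hold no expression values, so the cell type was not checked against markers.

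NBS1 works together with MRE11 and RAD50 in a complex that is recruited to broken DNA and takes part in activating the ATM kinase there. In developing B cells the RAG1/2 recombinase makes such breaks at recombination signals beside the V, D and J segments of antigen receptor genes, and the Artemis nuclease opens the hairpin ends that RAG1/2 leaves. The v-Abl oncogene keeps pre-B cells dividing and holds them at a stage before light chain rearrangement. The title of the study asks about RAG1/2-dependent breaks at loci other than immunoglobulin genes, and the kept off-locus peaks are some of the AH2 intervals at such loci.

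The peaks were selected on their presence in both AH2 lists and chosen by position, so every value below is a description of the chosen intervals and none is a test. With 1 library per group no value has a replicate error, and the sequencing depth is unknown. The intervals printed with shares are Wilson intervals for counting error alone, with neighbouring peaks counted as separate. Positions are 1-based in mm9. The score is the one the authors deposited for each peak, with a minimum of 50 in every list. What it measures is not stated in the files, so the scores of an interval in the 2 AH2 lists are set side by side and are not read as amounts of NBS1.

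Kept off-locus peaks were narrow and mostly low in score. Their median width was 116 bp, the middle 50% were 95.3 to 132 bp wide, and the range was 50 to 1702 bp. In the subtracted list their median score was 57.5, with quartiles of 52.7 and 62.9 and a highest score of 1295. In the AH2 NBS1 list the same peaks had a median of 59.6, with quartiles of 53.7 and 71.2 and a highest score of 1126. Only 32 of the 802, 3.99% (2.84 to 5.58%), had a score of at least 100 in the subtracted list, where the share among all 1233 off-locus intervals was 2.6%. In the AH2 NBS1 list 88 of them, 10.97% (8.99 to 13.3%), reached 100, against 24.1% of all 4331 off-locus AH2 NBS1 peaks. The set was thus short of high-scoring AH2 NBS1 peaks and rested largely on peaks near the caller's minimum.

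At both edges of the Igh and Igk windows, the nearest interval left out scored higher in the subtracted list than the nearest kept peak. The same order held at the left edges of the Igl window (61.8 left out, 54.9 kept) and of the Tcra/Tcrd window (55.8 left out, 52.7 kept). At their right edges the order was the reverse, for Igl (63.0 left out, 123.9 kept) and for Tcra/Tcrd (50.5 left out, 53.7 kept). The nearest kept peak could lie megabases from its edge, as at 67715747 to 67715861 of chromosome 14 for the Tcra/Tcrd window that ends at 55 Mb. The kept peak nearest the 5 Mb limit was on chromosome 14 at 5087714 to 5087905 (score 55.3 in the subtracted list), and the nearest interval left out was on chromosome 7 at 4994399 to 4994544 (score 50.2). On chromosome 12 the kept peak nearest the right edge of the Igh window, at 118826858 to 118827098, had 68.9, and the nearest interval inside the window, at 117916613 to 117916840, had 121. On chromosome 6 the kept peak nearest the left edge of the Igk window, at 63801330 to 63801451, had 51.2, and the nearest inside, at 67560143 to 67560554, had 156.

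Most kept off-locus peaks coincided with no peak of another library, and a minority coincided with input. Of the 802, 737 overlapped neither an R2K.Artm NBS1 peak nor an AH2 input peak by at least 1 base, 91.9% (89.8 to 93.6%), against 62.3% of all off-locus AH2 NBS1 peaks. An input peak was overlapped by 59, 7.36% (5.75 to 9.37%), against 25.2%. An R2K.Artm NBS1 peak was overlapped by 8, 0.998% (0.506 to 1.96%), against 30.5%. Of the 59 and the 8, 2 overlapped both lists. By its title the subtracted list had R2K.Artm NBS1 and input removed, so nothing is read from these shares. The kept set still held peaks that overlapped either list.

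The share of kept peaks that overlapped input was higher at high scores, although 46 of the 59 had a subtracted score under 100. Of the 32 with a score of at least 100 in the subtracted list, 13 overlapped an input peak, 40.6% (25.5 to 57.7%). Between 70 and 100 it was 14 of 102, 13.7% (8.36 to 21.7%). From 60 to 70 it was 7 of 155, 4.52%, from 55 to 60 it was 10 of 217, 4.61%, and from 50 to 55 it was 15 of 296, 5.07%. Among the 10 highest, 7 overlapped input. A ranking of the kept off-locus peaks by score therefore began with positions that also had input peaks. The same shares by score were not computed for all off-locus AH2 NBS1 peaks. In the AH2 NBS1 list, those that overlapped neither other list scored at most 264.34, while the highest of all scored 3104. Every off-locus AH2 NBS1 peak above 264.34 thus overlapped R2K.Artm NBS1 or input, kept or not.

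The highest kept off-locus peak lay on chromosome 18 at 43135374 to 43135836, with a score of 1295 in the subtracted list and 759 in the AH2 NBS1 list. It overlapped an input peak of score 1202, higher than 99.7% of input peaks. The next lay on chromosome 6 at 136951269 to 136951795, with 494 and 291, over an input peak of 1047. The peak on chromosome 4 at 118219650 to 118221351 was the widest of the set, at 1702 bp, and overlapped peaks of nearly the same extent in R2K.Artm NBS1 (118219647 to 118221351) and in input (118219636 to 118221378). Its score was 455 in the subtracted list and 1126 in the AH2 NBS1 list, and its input peak had 3100. On chromosome 15, the peak at 59973301 to 59973620 had nearly equal scores of 351 and 347, and the input peak there had 350. The other input-overlapping peaks among the 10 highest had 209 on chromosome 9 (123832768 to 123833187), 193 on chromosome 16 (94995957 to 94996011) and 173 on chromosome 15 (36838469 to 36838919). The 4 highest thus all lay over input peaks.

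The remaining 3 of the 10 highest overlapped neither other list. They lay at 100234927 to 100235107 of chromosome 7, with 185 in the subtracted list and 141 in the AH2 NBS1 list, on chromosome 17 at 24479753 to 24479970, with 160 and 149, and on the same chromosome at 61628969 to 61629138, with 156 and 153. The next such peaks, named after their values were seen, were on chromosome 3 at 9528416 to 9528597 (140 and 96.3), chromosome 4 at 49401050 to 49401107 (139 and 131) and chromosome 16 at 21149721 to 21149781 (123.9 and 114.35). Scores of at least 100 in both AH2 lists were found for 25 kept peaks. Of these, 14 overlapped neither other list, 56.0% (37.1 to 73.3%), beside 62.3% of all off-locus AH2 NBS1 peaks of any score. The other 11 overlapped input, 44.0% (26.7 to 62.9%), beside 25.2%. Those on chromosome 4 and at 36838469 to 36838919 of chromosome 15 overlapped R2K.Artm NBS1 as well. The 14 were the off-locus intervals that were high in both AH2 lists and had no peak in R2K.Artm NBS1 or input.

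**Figure D1:**
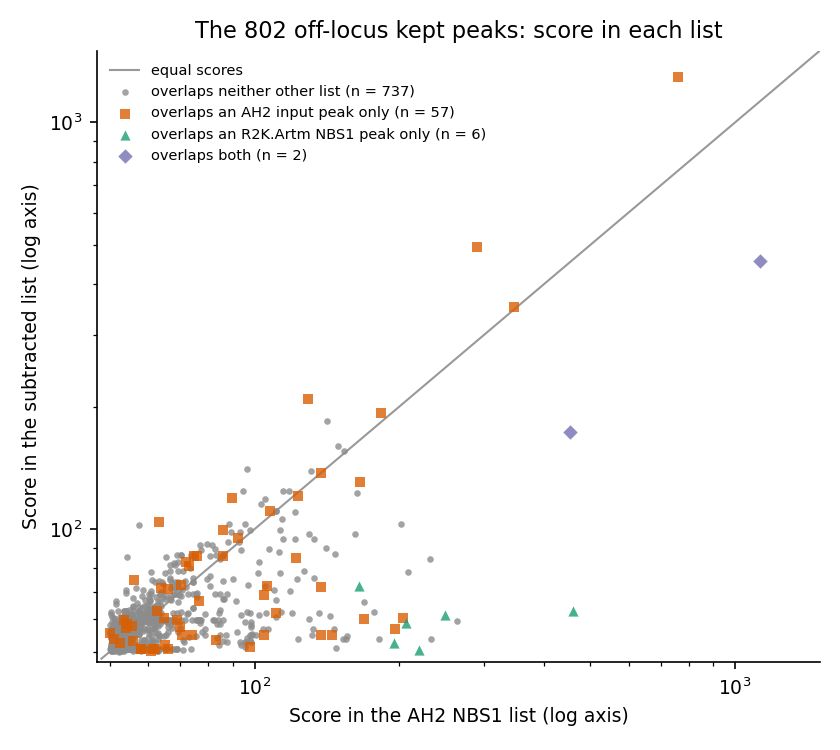
Score of each of the 802 kept off-locus peaks in the AH2 NBS1 list (horizontal, log axis) and in the subtracted list (vertical, log axis), with 1 point per peak and the line of equal scores. The 8 peaks that overlapped an R2K.Artm NBS1 peak lie below the line, and peaks that overlapped input lie on both sides of it, the highest at 1295 in the subtracted list.

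The 2 scores of a kept peak were often unequal. The score in the subtracted list was lower than that in the AH2 NBS1 list for 408 of the 802, 50.9% (47.4 to 54.3%), higher for 337, 42.02% (38.6 to 45.5%), and equal within 0.01 for 57, 7.11% (5.53 to 9.10%). Over all 922 identical intervals the lower share was 50.3% and the higher share 42.7%. With scores within 5% counted as equal, 295 were lower and 212 higher. Across the 802 peaks the scores had a Pearson correlation of 0.68 and a Spearman correlation of 0.55. Both scores come from the same library, so the correlation describes 2 peak calls and not 2 samples.

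The difference between the scores went with the score in the AH2 NBS1 list. Of the 261 kept peaks with an AH2 NBS1 score from 50 to 55, 30.3% had a lower score in the subtracted list and 59.0% a higher one, and the median ratio of the subtracted to the AH2 NBS1 score was 1.02. From 60 to 70, 57.9% of 178 were lower and the median ratio was 0.954. From 70 to 100, 68.5% of 124 were lower, with a median ratio of 0.834. Of the 88 with at least 100, 80.7% were lower and the median ratio was 0.593. Since both lists start at 50, a kept peak near 50 in the AH2 NBS1 list had little room for a lower score. Of these 88, 63 were under 100 in the subtracted list.

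All 8 kept peaks that overlapped an R2K.Artm NBS1 peak had lower scores in the subtracted list. Their AH2 NBS1 scores ran from 165 to 1126 with a median of 235, their subtracted scores from 50.6 to 455 with a median of 62.1, and their ratios from 0.137 to 0.439. Among all 88 kept peaks with an AH2 NBS1 score of at least 100, 80.7% were lower, with a median ratio of 0.593. By its title the subtracted list had R2K.Artm NBS1 removed, so nothing is read from the lower scores of the 8. The lowest ratio was on chromosome 13 at 23622211 to 23622295, with 460 in the AH2 NBS1 list and 62.8 in the subtracted list, where R2K.Artm NBS1 had a peak of score 98.3. On the same chromosome, the peak at 22112965 to 22113080 had 220 and 50.6. Others were on chromosome 14 at 88724550 to 88724729 (207 in the AH2 NBS1 list and 58.7 in the subtracted list), chromosome 17 at 14136005 to 14136303 (195 and 52.5), and chromosome 3 at 31585202 to 31585403 (249 and 61.4) and 9527786 to 9528129 (165 and 72.3). The 2 that also overlapped input were those on chromosomes 4 and 15 given above, with AH2 NBS1 scores of 1126 and 453.

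Kept peaks with input overlap alone had scores on both sides. Of the 57, 30 had a lower and 25 a higher score in the subtracted list, and their median ratio was 0.981, beside 0.999 for the 737 that overlapped neither list. In all, 31 kept peaks had a subtracted score of at most 0.5 times the AH2 NBS1 score. With a minimum of 50 in both lists, such a ratio needs an AH2 NBS1 score of at least 100, and the 31 had 123 to 1126. Of these 31, 8 overlapped R2K.Artm NBS1, 7 overlapped input and 18 overlapped neither, and 7 lay in the dense regions of chromosomes 8 and 13 described below. The lowest ratio without any overlap, 0.225, was on chromosome 12 at 18198133 to 18198196, with 264 and 59.5. At the other end, 18 kept peaks had a ratio of at least 1.25, and 753 lay between 0.5 and 1.25. None of these 18 and none of the 753 overlapped R2K.Artm NBS1. Input was overlapped by 6 (33.3%) of the 18, 7 (22.6%) of the 31 with the lowest ratios and 46 (6.11%) of the 753 between. Of the 6, those at 123832768 to 123833187 and 123833238 to 123833627 of chromosome 9 overlapped the same input peak. The 3 largest ratios were 1.78, on chromosome 9 at 123842887 to 123843190, and 1.71 and 1.70, for the highest peaks of chromosomes 18 and 6.

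In the subtracted list, kept peaks piled up on 3 score values. A score of 50.73 was given to 90 of the 802, 59.7 to 40 and 69.06 to 11, together 141 peaks, 17.6% of the set. The fourth most common score was given to 8. In the AH2 NBS1 list the commonest score among the same 802 peaks was given to 9, and the 141 peaks had 135 different scores there, from 50.1 to 87.5. The median width of the 141 was 121 bp, beside 116 bp for the whole set. Input was overlapped by 6 of them, 4.26%, beside 8.02% of the others, and R2K.Artm NBS1 by 0. The score of 50.73 was also the commonest in the whole subtracted list, with 136 of 1489 intervals (9.13%). Among its 431 off-locus intervals that matched no AH2 NBS1 peak in chromosome, start and end, it was likewise the commonest, with 37 (8.58%), beside 11.2% of the kept peaks. In the full R2K.Artm NBS1 and input lists the commonest score made up 0.501% and 0.538% of peaks. The order of kept peaks by subtracted score is therefore undefined within these ties.

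**Figure D2:**
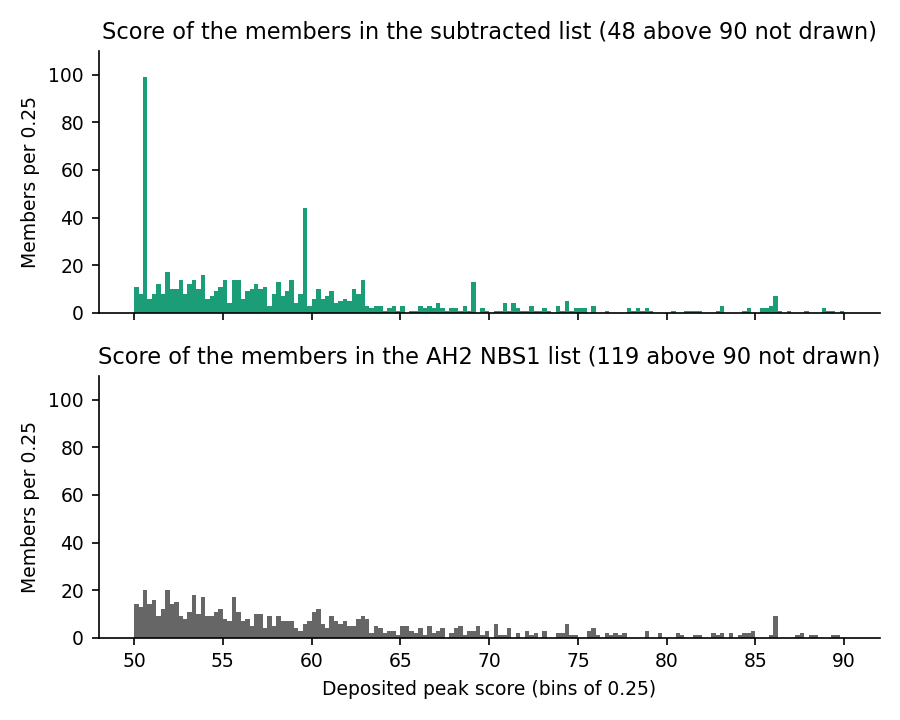
Number of kept off-locus peaks (vertical) by deposited score in bins of 0.25 (horizontal, 50 to 90), in the subtracted list above and in the AH2 NBS1 list below. The columns that hold 50.73, 59.7 and 69.06 stand out in the subtracted list, and no bin of the AH2 NBS1 list is as full as the first of these.

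A further question was which off-locus AH2 NBS1 peaks were kept. Of 4331, 802 were kept, 18.5% (17.4 to 19.7%). Kept were 737 of the 2699 that overlapped neither other list, 27.3% (25.7 to 29.0%), 57 of 312 that overlapped input only, 18.3% (14.4 to 22.9%), 6 of 541 that overlapped R2K.Artm NBS1 only, 1.11% (0.509 to 2.40%), and 2 of 779 that overlapped both, 0.257% (0.0704 to 0.931%). Most AH2 NBS1 peaks without a counterpart in either other list, 1962 of the 2699, thus had no identical interval in the subtracted list. Whether they overlapped an interval of that list with other ends was not examined.

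The 737 kept peaks and these 1962 had close medians of score and width, and like shares with an AH2 NBS1 or input neighbour within 10 kb. The median AH2 NBS1 score was 58.6 for the kept and 58.3 for those not kept, and the median width was 116 and 115.5 bp. Over 10 equal classes of the AH2 NBS1 score, the kept share of the 2699 lay between 21.5% (17.0 to 26.8%) and 33.0% (27.6 to 38.8%), with no steady trend: it was 24.1% in the lowest class and 29.6% in the highest. Over all 4331 the kept share was 22.4% in the lowest class and 3.93% in the highest. Over 5 equal classes of width, the kept share of the 2699 was lowest at 48 to 88 bp, at 22.96% (19.6 to 26.7%). It was highest at 88 to 108 bp, at 33.3% (29.5 to 37.4%). For score and for width, the lowest and highest classes were picked after the values were seen, and their differences were not tested. The share did not rise steadily with width, with 23.7% at 108 to 121 bp. Another off-locus AH2 NBS1 peak lay within 10 kb of 6.78% (5.18 to 8.83%) of the 737 and of 7.85% (6.74 to 9.12%) of the 1962. An input peak lay within 10 kb of 10.99% (8.93 to 13.5%) and 10.6% (9.32 to 12.04%). The share with an R2K.Artm NBS1 peak within 10 kb was lower for the 737, at 3.39% (2.31 to 4.96%), than for the 1962, at 5.40% (4.49 to 6.49%). These intervals overlapped, and the difference was not tested. Within 100 kb these shares were 21.4% and 22.2% for R2K.Artm NBS1, and 57.9% (54.3 to 61.5%) and 54.4% (52.2 to 56.6%) for input.

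**Figure D3:**
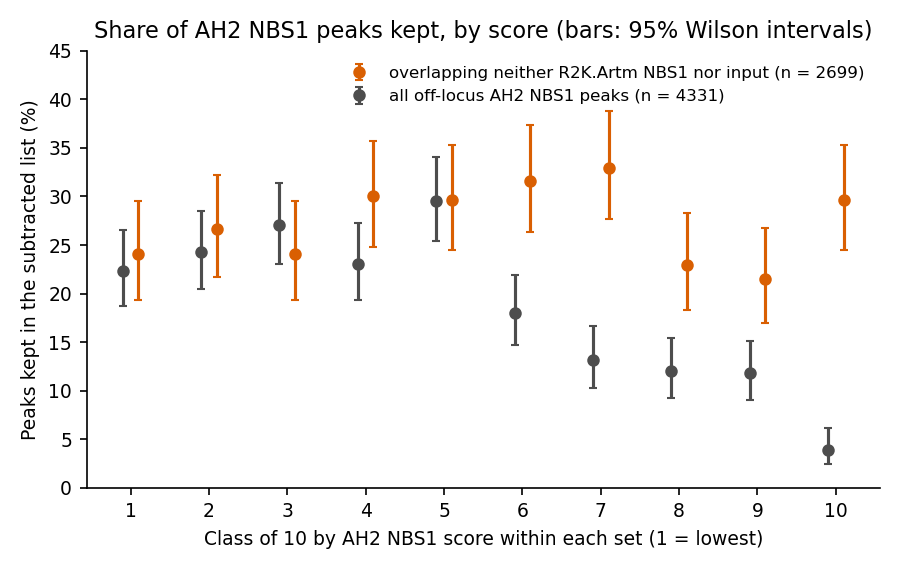
Share of off-locus AH2 NBS1 peaks that were kept (vertical, percent, with 95% Wilson intervals) in 10 equal classes of the AH2 NBS1 score (horizontal), for all 4331 peaks and for the 2699 that overlapped neither other list. The share over all peaks is 22.4% in the lowest and 3.93% in the highest class, while that of the 2699 stays between 21.5% and 33.0%.

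The subtracted list also held 431 off-locus intervals that matched no AH2 NBS1 peak in chromosome, start and end. Whether they overlapped AH2 NBS1 peaks with other ends was not examined. The 431 were lower in score and more uniform than the 802 kept ones. Their scores ranged from 50.0 to 85.7 with a median of 52.2, beside a median of 57.5 for the kept peaks. The middle 50% of their widths were 113 to 127 bp, beside 95.3 to 132 bp. None of the 431 reached a score of 100, and 8 overlapped input, 1.86% (0.943 to 3.62%), beside 7.36% of the kept peaks. An interval of the 431 lay within 10 kb of 10 kept peaks, 1.25%, and within 100 kb of 46, 5.74%. These shares were not computed for AH2 NBS1 peaks that were not kept, so they are not read as near or far.

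Kept off-locus peaks were spread over all 19 autosomes and were mostly isolated. Over 2361 Mb of sequence between the limits of the selection there were 0.340 per Mb, and the median distance between neighbouring kept peaks was 1889 kb. Another kept peak lay within 10 kb of 26 of the 802, 3.24% (2.22 to 4.71%), and within 100 kb of 84, 10.5% (8.54 to 12.8%). Any other off-locus AH2 NBS1 peak lay within 10 kb of 64, 7.98% (6.30 to 10.1%), against 10.7% of all off-locus AH2 NBS1 peaks. Of the megabase bins with a kept peak, 569 held 1, 81 held 2, 18 held 3, and 3 held 4, 6 and 7.

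Density was highest on chromosome 15, with 43 kept peaks or 0.437 per Mb (exact 95% Poisson interval 0.316 to 0.589), and lowest on chromosome 16, with 23 or 0.249 per Mb (0.158 to 0.374). These intervals overlapped, and chromosomes 18 (0.421 per Mb), 14 (0.418) and 19 (0.408) were close to the highest. Across the 19 chromosomes, the density of kept peaks had a Spearman correlation of 0.11 with that of off-locus AH2 NBS1 peaks, -0.28 with R2K.Artm NBS1 and 0.08 with input, as a description of chromosomes that share 1 library per list. Of the AH2 NBS1 peaks in neither other list, 34.9% (26.6 to 44.2%) were kept on chromosome 15 and 21.5% (14.4 to 30.9%) on chromosome 16. The highest such share was 35.5% (24.7 to 47.9%), on chromosome 19, and the lowest 20.9% (14.9 to 28.5%), on chromosome 13. In 3 equal parts of the chromosome from the centromere-proximal end, the kept peaks divided into 31.2%, 33.0% and 35.8%, beside 33.4%, 32.5% and 34.1% of off-locus AH2 NBS1 peaks that were not kept.

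**Figure D4:**
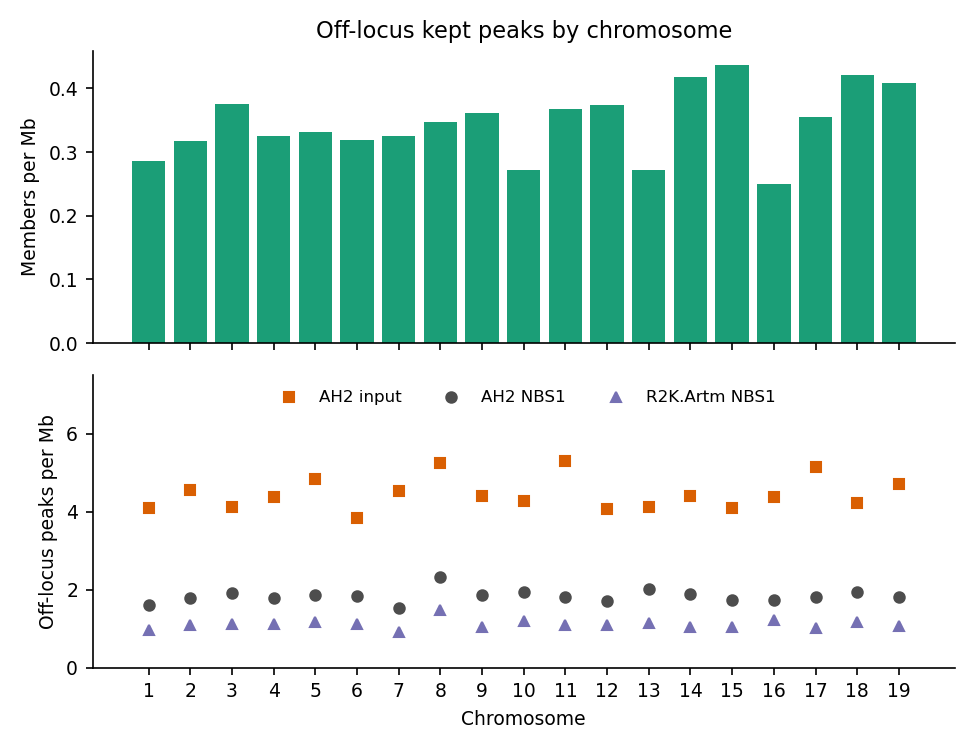
Kept off-locus peaks per Mb on each autosome (bars, above) and off-locus peaks per Mb of the AH2 input, AH2 NBS1 and R2K.Artm NBS1 lists (points, below). Chromosome 15 has 0.437 and chromosome 16 has 0.249 kept peaks per Mb.

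The fullest bin, from 123 to 124 Mb of chromosome 9, held 7 of the 10 off-locus AH2 NBS1 peaks there. Of these 7, 5 formed a group in which each lay under 10 kb from the next, at 123832768 to 123833187, 123833238 to 123833627, 123833825 to 123834293, 123842887 to 123843190 and 123844269 to 123844718. Their scores in the subtracted list were, in that order, 209, 104, 83.1, 103 and 95.1, and in the AH2 NBS1 list 129, 63.1, 72.0, 57.4 and 92.2, so that all 5 were higher in the subtracted list. Apart from the fourth, all overlapped an input peak. The group had no R2K.Artm NBS1 peak. The 5 peaks were 304 to 469 bp wide, and each was wider than 3 in 4 kept peaks, whose upper quartile was 132 bp.

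The bin from 126 to 127 Mb of chromosome 8 held 43 AH2 NBS1 peaks, of which 6 were kept, beside 24 peaks of R2K.Artm NBS1. The genes for 5S ribosomal RNA form a tandem array on this chromosome in the mouse, but the peaks were not matched to genes. From the first to the last of the 6 kept peaks, over 69.6 kb, there were 35 AH2 NBS1 peaks at regular distances: 28 of the 34 distances between neighbouring peak centres were from 1617 to 1745 bp, and the other 6 were from 3405 to 5091 bp. The 6 kept peaks were at 126067764 to 126067851, 126098307 to 126098454, 126103343 to 126103432, 126110143 to 126110219, 126133885 to 126134042 and 126137316 to 126137412. Their AH2 NBS1 scores were 122, 123, 153, 233, 119 and 141, and their subtracted scores 75.2, 53.8, 53.8, 53.7, 70.6 and 89.8. All 6 were lower in the subtracted list, and none overlapped an R2K.Artm NBS1 or input peak. Among all 88 kept peaks with an AH2 NBS1 score of at least 100, 80.7% were lower, with a median ratio of 0.593. R2K.Artm NBS1 peaks overlapped 18 of the 35, beside 30.5% of all 4331 off-locus AH2 NBS1 peaks. The kept peaks thus belonged to a row in which other peaks had an R2K.Artm NBS1 counterpart.

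**Figure D5:**
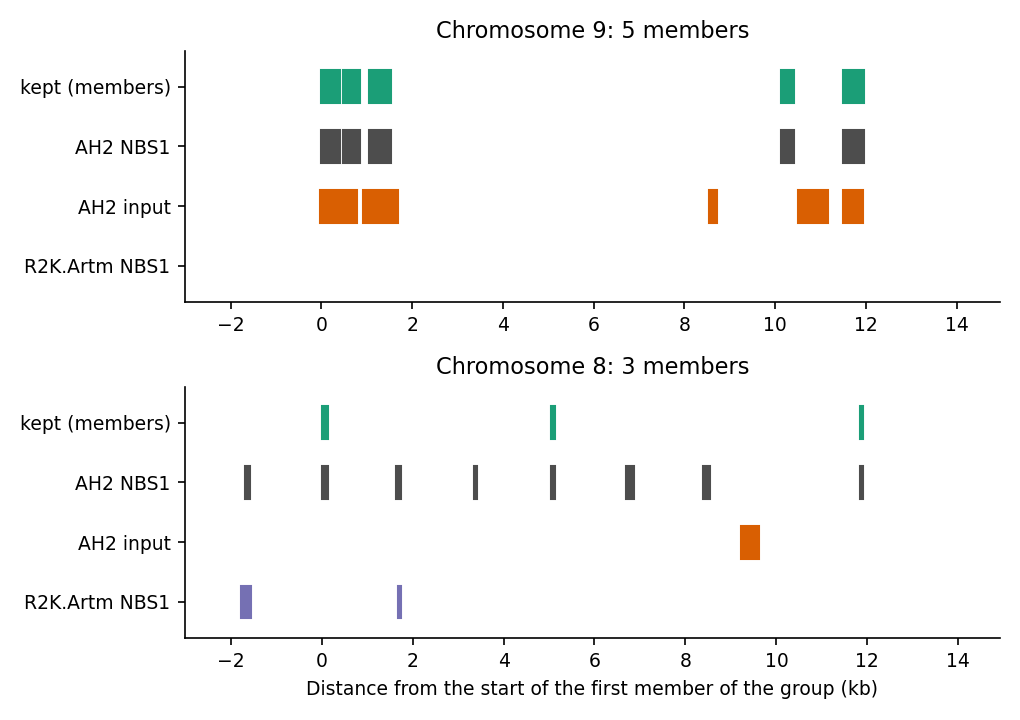
Peaks of each list (rows, bars drawn to their width) around the groups of 3 or more kept off-locus peaks each under 10 kb from the next, by distance in kb from the start of the group's first kept peak. On chromosome 9 the 5 kept peaks lie on or beside input peaks, and on chromosome 8 the 3 kept peaks are members of an evenly spaced row of AH2 NBS1 peaks, with R2K.Artm NBS1 peaks on others of the row.

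Chromosome 13, which carries the largest cluster of histone genes in the mouse, had 6 kept peaks among 31 AH2 NBS1 peaks from 22 to 24 Mb. Of the 31, 12 overlapped an R2K.Artm NBS1 peak, beside 30.5% of all off-locus AH2 NBS1 peaks. All 6 kept peaks had a lower score in the subtracted list, with ratios from 0.137 to 0.943. The lower share was 80.7% among kept peaks with an AH2 NBS1 score of at least 100, and 50.9% over all kept peaks. The peaks at 22032802 to 22032870, 22086078 to 22086150 and 23528861 to 23528946 overlapped no other list and had AH2 NBS1 scores of 111, 144 and 178 beside subtracted scores of 67.01, 61.2 and 62.7. The remaining peak without overlap, at 23538672 to 23538757, had nearly equal scores of 54.5 and 51.4. The kept share was 19.4% in this stretch and 13.95% in the bin of chromosome 8, beside 18.5% of all off-locus AH2 NBS1 peaks. These regions were singled out after their values were seen.

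The other kept peaks under 10 kb apart formed 9 pairs. The closest pair, on chromosome 11 at 77463561 to 77463630 and 77463690 to 77463856, lay over input peaks, with subtracted scores of 59.6 and 55.5. On chromosome 3, the peak at 9527786 to 9528129 that overlapped R2K.Artm NBS1 had 165 in the AH2 NBS1 list and 72.3 in the subtracted list, while its neighbour 286 bp away, at 9528416 to 9528597, had no R2K.Artm NBS1 overlap and the reverse order, with 96.3 and 140. The pair on chromosome 19, at 28342036 to 28342132 and 28349996 to 28350098, had equal or nearly equal scores in both lists, with 92.95 in each for the former and 52.3 and 52.2 for the latter.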

How the data were processed

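NBS1 ChIP-seq peak lists of AH2 and R2K.Artm and an AH2 input list were used, 1 library per group. Bowtie, MACS 1.4.2 and build mm9 were used, per the submitters' processing notes; which Bowtie version and which control library were used is not given in the sources used here. The headers of the NBS1 lists name a setting MFOLD4. The subtracted list names R2K.Artm NBS1 and input in its title and R2K.Artm NBS1 only in its header, and how it was made is not stated. The value per peak is a score deposited by the authors, with a minimum of 50.

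Python 3.11.15 was used for the joins, with numpy 2.4.6, pandas 2.3.3 and scipy 1.17.1, and figures drawn with matplotlib 3.10.9. An overlap of 1 base counted as shared. The 6 windows (chr12:114-118, chr6:67-71, chr6:40-42, chr16:19-20, chr14:52-55 and chr13:19-20, in Mb) and the 5 Mb limit were given. Density was taken over the span that any list covers from 5 Mb on, less the windows. Joins were tested on simulated data. Sequence, repeats, recombination signals and gene annotation in mm9 were not analysed here.

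The peaks, lists and alternatives were chosen with earlier results of these data known. Named peaks are the 10 highest in the subtracted list, the 5 highest in the AH2 NBS1 list, the 3 widest, the 3 largest and 3 smallest score ratios, those that overlap R2K.Artm NBS1, groups of 3 or more under 10 kb apart, and those nearest the limits; others were named after their values were seen.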

Additional observations from a re-analysis of the deposited data

How the results depend on the processing

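No paired analysis was possible because no group has more than 1 library, and leaving a library out would empty its group. For 27 results, 44 alternative values were computed, of which 32 stayed within the 95% interval of the reported share or median, or within 1.5 times the reported count or density, and 12 did not. The number of kept off-locus peaks (802) was 32 with a score of at least 100 in the subtracted list and 88 with such a score in the AH2 NBS1 list, by construction of a stricter limit. The overlap with input (7.36%) was 40.6% among those 32 and 2.99% when only input peaks with a score of at least 100 counted. The overlap with R2K.Artm NBS1 (0.998%) was 6.25% (2 of 32) and 0.125% (1 of 802) under the same limits. The share with another kept peak nearby was 10.5% within 100 kb, and 1.79% within 10 kb without the regions of chromosomes 8, 9 and 13, an alternative added after seeing the data. The share with a lower score in the subtracted list was 36.8% with scores within 5% counted as equal. The share kept (18.5%) was 27.3% among peaks in neither other list and 8.45% among AH2 NBS1 peaks with a score of at least 100. The median width of the 32 peaks with a score of at least 100 was 113.5 bp. For the values with no construction named, the cause was not tested. Not run here were the alternatives on repeats, recombination signals and genes. A region without a peak is not shown to lack NBS1, since the lists hold only regions past the caller's minimum.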
